A study of Mus musculus with 16 samples.

Results

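The nuclear genes of the oxidative phosphorylation machinery were examined in hippocampal microglia of aged and young mice. Members were taken by symbol: names starting with Nduf for complex I, Sdha to Sdhd for complex II, names starting with Uqcr for complex III, Cox4 to Cox8 for complex IV and names starting with Atp5 for complex V, without pseudogenes. This gave 92 of the 24015 genes in the table. By symbol, 45 were assigned to complex I, 4 to complex II, 8 to complex III, 18 to complex IV and 17 to complex V. A symbol need not match the place of the protein, and Atp5sl, counted in complex V, is annotated as Dmac2. Testing required 10 normalized counts or more in at least 6 samples, and 85 members met this (43, 4, 8, 13 and 17 in complexes I to V). The aged group was 6 samples from mice aged 20 months and the young group 6 samples from mice aged 3 months, with no treatment or engineered allele in the labels. All young samples and aged samples 1 to 4 carry the strain label C57BL/6. In aged 5 and aged 6 the last digit of that label differs and counts upward from library to library, which may be an entry error and was not settled. Microglia, the macrophages resident in brain tissue, had been sorted as live CD11b+ CD45lo cells after perfusion. Whether each sample came from a single mouse or from pooled mice is not in the labels, and p-values reflect the variation among the samples as they are. Young 2, young 4, aged 3 and aged 6 each combine 2 technical libraries in 1 column and count as 1 sample.

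Oxidative phosphorylation takes electrons from NADH at complex I and from succinate at complex II, passes them through ubiquinone, complex III and cytochrome c to oxygen at complex IV, and uses the proton gradient built on the way to make ATP at complex V. Complexes I, III, IV and V are mosaics of a few subunits encoded in mitochondrial DNA and many encoded in the nucleus, while complex II is encoded in the nucleus alone. Several nuclear subunits of complexes IV and V exist as paralogs, some of them used in particular tissues such as heart and skeletal muscle. Microglia use this pathway in the resting, surveying state and are known to lean more on glycolysis when activated by inflammatory stimuli. No gene of the list of 13 mitochondrially encoded subunits matched a row of the table, so the nuclear side alone was analysed here.

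No oxidative phosphorylation gene passed the test between ages. Of 85 tested members, 0 were called higher and 0 lower at 20 months (limma, Benjamini-Hochberg adjusted p under 0.05), where 1.27% of all 11579 tested genes were called higher, 0.458% lower and 1.73% in either direction. Aged and young samples did not separate completely for any of the 85 members, against 1.87% of all tested genes whose ages did not overlap. At an unadjusted p under 0.05, Cox6a2 and Ndufa1 were the 2 members found, against 10.8% of all tested genes. Without aged 5 they were 22 members, 25.9%, against 12.6% of all tested genes. Aged 5 was the lowest aged sample in 65 of the 85 members, so leaving it out raises their differences by construction. Unadjusted counts with other samples left out are not given here. edgeR on whole reads recovered from the 8 samples with 1 library called 0 members (0.786% of all genes), limma on the same 8 samples 0 (0.674%) and DESeq2 1, Cox6a2 (2.03%). Differences were small, with 79 of the 85 log2 fold changes within 0.30 of 0 and 1 of at least 1. Their signs leaned one way, with 65 above 0 and 20 below, where 50.5% of all tested genes were above 0. The median log2 fold change, aged over young, was 0.10 over the members and 0.0016 over all tested genes.

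By complex, the median log2 fold change was 0.08 in complex I (36 of 43 above 0), 0.0030 in complex II (2 of 4), 0.20 in complex III (5 of 8), 0.22 in complex IV (11 of 13) and 0.08 in complex V (11 of 17). On a linear scale these medians are 5.68%, 0.209%, 14.7%, 16.9% and 6.03% above the young level. The medians are descriptions with no test, because the members share samples and were chosen with earlier results of these data known.

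**Figure D1:**
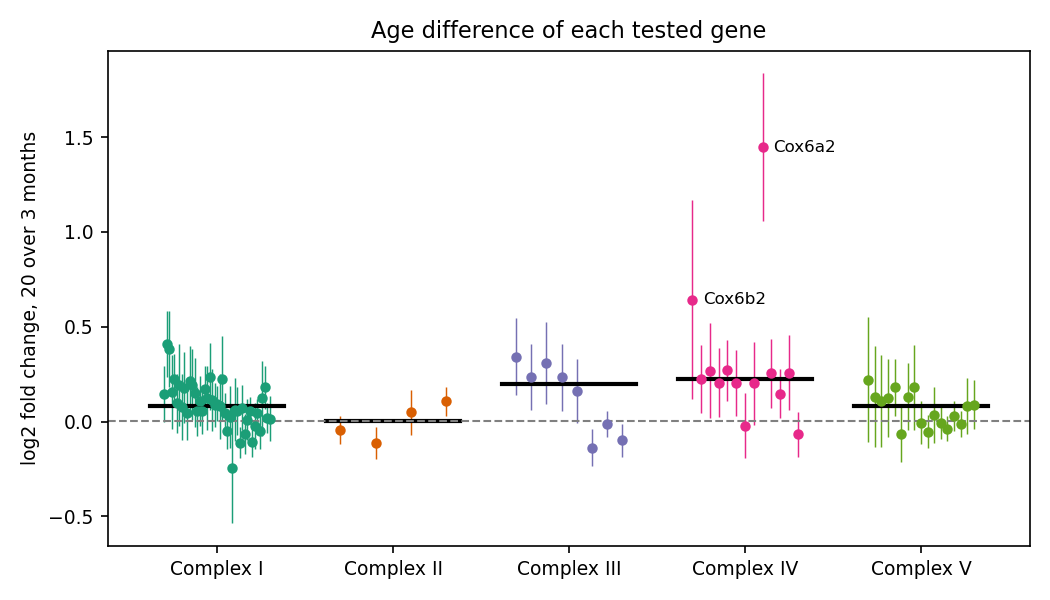
Each point is 1 tested gene, the y axis is its log2 fold change (20 months over 3 months) with its standard error as a vertical line, and the thick bar is the median of the complex. All points but Cox6a2 and Cox6b2 of complex IV lie below 0.5, and the medians run from 0.0030 in complex II to 0.22 in complex IV.

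Of the 92 members, 7 were not tested. Ndufs5, an accessory subunit of complex I, was listed at 0 in all 12 samples although complex I contains it in every tissue, so its 0 cannot be read as a lack of the transcript. Cox8c and Cox7b2, known from testis, were also listed at 0 throughout. Ndufa4l2, known as a hypoxia-induced relative of Ndufa4, was at 0 in every sample but young 4, with 3.20 normalized counts. The remaining 3 are tissue isoforms of complex IV. Cox4i2, the lung isoform of subunit 4, reached at most 2.56, Cox7a1, the muscle isoform of subunit 7a, at most 4.02, and Cox8b, the muscle isoform of subunit 8, at most 3.08 normalized counts.

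Depth was 24.2 to 31.6 M reads in the 4 aged samples and 11.4 to 47.3 M in the 4 young samples with 1 library, the shallowest being young 1. The depth of the samples with 2 libraries was not recovered. Microglial markers made up 65779 to 71699 CPM in aged and 72347 to 78953 CPM in young samples over 12 genes, and these ranges did not overlap. Of the 12, Fcrls alone passed, at 89490 ± 6869 normalized counts in aged and 123873 ± 5703 in young samples (SD, n = 6 each, limma adjusted p = 3.8e-04). Neuronal markers stood at 0.828 to 3.69 CPM in aged and 1.31 to 4.22 CPM in young samples over 8 genes, monocyte markers at 4.10 to 5.86 CPM in aged and 2.11 to 4.48 CPM in young samples over 6 genes, and choroid plexus markers at 16.5 to 131 CPM in aged and 9.81 to 49.1 CPM in young samples over 6 genes. Lymphocyte markers were under 1 CPM in every sample. The 4 globin genes of the red blood cell list were listed at 0 in all 12 samples, as Ndufs5 was, and are not read as low expression, so that Alas2 was the 1 gene of that list with values. Of 4 tested astrocyte markers 1 was called higher, Aldh1l1, a folate enzyme (limma adjusted p = 0.0411). It averaged 57.2 ± 26.5 in aged and 19.4 ± 8.37 normalized counts in young samples (SD, n = 6 each). Its ages did not overlap, but by a narrow margin, with aged 2 at 30.17 and young 6 at 30.07. The astrocyte list summed to 214 to 282 CPM in aged and 207 to 259 CPM in young samples. Most of that sum was Slc1a3, which averaged 6351 normalized counts in aged and 6091 in young samples. Aqp4 averaged 2.32 in aged and 5.65 in young samples, and Gja1 7.54 in aged and 5.69 in young samples. Of 5 tested border macrophage markers none passed and 4 had log2 fold changes above 0, with F13a1 at 1.86 (limma adjusted p = 0.172) and Cd163 at 1.80 (0.438), and the list summed to 6.56 to 25.6 CPM in aged and 7.96 to 14.0 CPM in young samples. None of 5 tested oligodendrocyte or 3 tested endothelial markers passed. Their lists summed to 224 to 264 and 49.4 to 81.2 CPM in aged samples, against 221 to 259.5 and 56.0 to 74.1 CPM in young samples. Most of these sums came from Cnp, Mbp and Mag in the first list and from Pecam1 and Kdr in the second. Mog averaged 1.98 normalized counts in aged and 2.47 in young samples, and Cldn5 0.144 in aged and 0.217 in young samples. The part of these markers in the values of the members was not tested. In bulk samples such as these, fewer cells of a type and less RNA per cell cannot be told apart.

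Levels of the members spanned a wide range within every complex, given here as normalized counts per kilobase of spliced transcript. The length is the median over annotated coding transcripts, so a level depends on which transcripts are annotated. The catalytic beta subunit of ATP synthase, Atp5b, was the highest member, with 6758 ± 628 in aged and 6910 ± 262 in young samples (SD, n = 6 each). The highest members of complexes I to IV were Ndufs8, Sdha, Uqcrc1 and Cox4i1, at 2202 ± 295, 3343 ± 342, 4099 ± 408 and 3411 ± 666 in aged samples, against 2133 ± 290, 3100 ± 270, 4126 ± 161 and 3052 ± 438 in young samples. The lowest tested members of complexes I to V were Ndufaf5, Sdhc, Uqcrh, Cox6b2 and Atp5s, at 51.5 ± 21.2, 632 ± 97.2, 805 ± 234, 34.7 ± 14.2 and 163 ± 18.9 in aged samples, against 59.6 ± 19.2, 612 ± 102, 642 ± 182, 25.4 ± 16.3 and 162 ± 34.9 in young samples. In each complex the highest and lowest member lay further apart than the ages did in either of them.

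Complex I takes electrons from NADH. Its 7 tested nuclear core subunits, which hold the flavin and the iron-sulfur clusters, had a median log2 fold change of 0.04, with 5 above 0 and 2 below. The 7 assembly factors with Nduf names had a median of 0.0094, with 4 above 0 and 3 below. The other 29 tested genes with Nduf names, taken as accessory subunits, had a median of 0.12, with 27 above 0 and 2 below. None of the 43 passed.

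Ndufa1, a small accessory subunit that spans the inner membrane in the proton-pumping arm (chrX:37187588-37191163, minus strand, mm10), had the smallest p of complex I. It ranged from 321 through a median of 510 to 689 normalized counts in aged samples and from 300 through 384 to 500.2 in young samples. Aged 5 was the one aged sample below the young median, and the ages overlapped. The log2 fold change was 0.41 ± 0.17 (SE), which did not pass (limma adjusted p = 0.365).

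Ndufa3, another small membrane subunit (chr7:3617373-3620327, plus strand), ranged from 400.2 through 635 to 802 in aged and from 344 through 402 to 746 normalized counts in young samples (log2 fold change 0.38, limma adjusted p = 0.539). Ndufa7, an accessory subunit of the peripheral arm (chr17:33824572-33838317, plus strand), ranged from 579.7 through 699 to 900.0 in aged and from 499 through 622 to 758 normalized counts in young samples (log2 fold change 0.22, limma adjusted p = 0.609). In both genes the ages overlapped, and aged 5 was the lowest aged sample. Ndufs8, a core subunit that carries a pair of iron-sulfur clusters on the way to ubiquinone (chr19:3908863-3912774, minus strand), averaged 2158 ± 289 in aged and 2090 ± 284 normalized counts in young samples (SD, n = 6 each). Ndufaf5, an assembly factor that modifies Ndufs7 (chr2:140170649-140203689, plus strand), had the most negative value of all 85, with 60.1 ± 24.7 in aged and 69.5 ± 22.4 normalized counts in young samples (log2 fold change -0.24, SE 0.291).

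Complex II, succinate dehydrogenase, also belongs to the TCA cycle. All 4 genes were expressed and none passed, with limma adjusted p-values of 0.735 to 0.938. The flavoprotein Sdha (chr13:74322254-74350280, minus strand) averaged 9696 ± 991 in aged and 8989 ± 784 normalized counts in young samples (SD, n = 6 each), a log2 fold change of 0.11. The iron-sulfur subunit Sdhb (chr4:140961203-140979193, plus strand) averaged 2439 ± 205 in aged and 2512 ± 169 in young samples. The membrane anchors Sdhc (chr1:171127165-171150603, minus strand) and Sdhd (chr9:50596357-50603812, minus strand) averaged 1260 ± 194 and 2369 ± 189 in aged samples, against 1219 ± 204 and 2570 ± 282 in young samples. Sdhd had the most negative log2 fold change of the complex, -0.11, and the difference of its means was smaller than the SD of its young samples.

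Complex III, the cytochrome bc1 complex, split by the size of its subunits. The 3 large subunits were all below 0, with a median log2 fold change of -0.10, and the 5 small subunits all above 0, with a median of 0.24. The Rieske iron-sulfur protein Uqcrfs1 (chr13:30540308-30545362, minus strand) averaged 1201 ± 190 in aged and 1310 ± 96.0 normalized counts in young samples (log2 fold change -0.14, limma adjusted p = 0.741). The core protein Uqcrc1 (chr9:108936633-108949623, plus strand) averaged 6776 ± 674 in aged and 6821 ± 265 in young samples, and the core protein Uqcrc2 averaged 1719 ± 191 in aged and 1835 ± 149 in young samples (SD, n = 6 each).

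Uqcr10, a small transmembrane subunit (chr11:4701973-4704342, minus strand), ranged from 278 through 528 to 673 in aged and from 282 through 366 to 549 normalized counts in young samples. Aged 5 lay below every young sample. Its log2 fold change of 0.34 ± 0.21 (SE) did not pass (limma adjusted p = 0.636). Uqcrh, the hinge protein at the cytochrome c1 docking site (chr4:116066965-116075071, minus strand), ranged from 199 through 386 to 499 in aged and from 201 through 289 to 446 in young samples, with aged 5 again below every young sample (log2 fold change 0.31, limma adjusted p = 0.723). The other 3 small subunits, Uqcr11, Uqcrq and Uqcrb, had log2 fold changes of 0.24, 0.23 and 0.16.

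Complex IV, cytochrome c oxidase, held the largest difference of the set. Cox6a2, the heart and skeletal muscle isoform of subunit 6a (chr7:128205435-128206387, minus strand), had 176, 104, 182, 178, 28.7 and 69.9 normalized counts in aged samples 1 to 6, against 34.4, 31.1, 30.6, 45.7, 63.4 and 27.8 in young samples 1 to 6. All aged samples but aged 5 lay above every young sample, and aged 5 lay within the young range. The log2 fold change was 1.45 ± 0.39 (SE), a 2.73-fold difference on that scale, and did not pass (limma adjusted p = 0.0779). Its ubiquitous paralog Cox6a1 (chr5:115345642-115348981, minus strand) had 2280, 2163, 1822, 1881, 1066 and 2137 normalized counts in aged samples, against 1360, 1422, 1838, 1661, 1805 and 1167 in young samples (log2 fold change 0.27, limma adjusted p = 0.629). Here 4 of the 6 aged samples lay above every young sample, and aged 5 was the lowest of all 12 samples.

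**Figure D2:**
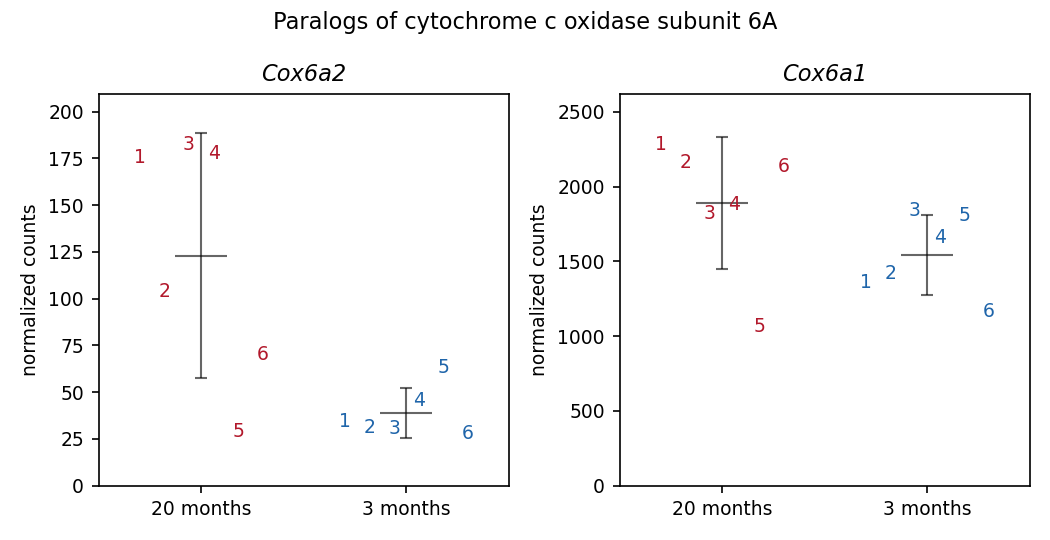
Each numeral is the sample number at its normalized counts (linear y axes from 0), with the horizontal bar at the mean and the error bar at 1 SD (n = 6 per age). Cox6a2 averaged 123 ± 65.4 at 20 months and 38.8 ± 13.6 at 3 months, with aged 5 at 28.7, and Cox6a1 averaged 1892 ± 441 at 20 months and 1542 ± 268 at 3 months.

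The ends of both coding sequences, the last 45 codons with the stop codon (135 bases), are shown from the GRCm38 genome and the GENCODE M21 annotation, because the value of the isoform rests on reads being told apart between the paralogs. Capitals mark the 38 positions at which they differ. Over the whole coding sequences, 294 bases in Cox6a2 and 339 in Cox6a1, 64.6% of aligned bases are identical and the longest shared run is 12 bases.
Cox6a2: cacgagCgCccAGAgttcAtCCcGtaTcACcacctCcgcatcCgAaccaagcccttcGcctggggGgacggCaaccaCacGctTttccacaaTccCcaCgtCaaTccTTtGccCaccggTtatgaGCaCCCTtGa
Cox6a1: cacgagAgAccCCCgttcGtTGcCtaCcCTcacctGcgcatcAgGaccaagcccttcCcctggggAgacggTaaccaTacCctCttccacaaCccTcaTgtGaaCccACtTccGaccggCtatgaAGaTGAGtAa

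Cox6a2 made up 5.87 ± 2.80% of the summed normalized counts of both paralogs in aged and 2.44 ± 0.584% in young samples (SD, n = 6 each). The log2 ratio of Cox6a2 over Cox6a1 was -4.14 ± 0.79 in aged and -5.32 ± 0.35 in young samples, a difference of 1.18 (exact permutation test, two-sided, p = 0.0130, Benjamini-Hochberg adjusted over 6 paralog pairs 0.0779). With 6 samples per age the smallest p of this test is 0.0022. Without aged 5 the gene passed (log2 fold change 1.81, limma adjusted p = 0.0024, 1.68% of all genes called). It also passed without aged 5 and 6 (2.04, 4.0e-04, 1.69% called) and without aged 5 and young 1 (1.79, 0.0061, 1.44% called). Aged 5 and aged 6 held the lowest Cox6a2 values of the aged group, so leaving them out raises the difference by construction. Cox6a2 passed too after a transcript length correction (1.37, 0.0486, 2.51% called) and with DESeq2 on 8 samples (1.62, 0.0385). edgeR on the same 8 samples did not call it (1.60, edgeR adjusted p = 0.228). In the rest of the 28 alternative settings it did not pass either. It shares 70 exon bases with Itgad on the opposite strand, which reached at most 16.1 normalized counts in a library type that does not mark strand. Choroid plexus markers were at 16.5, 88.3, 62.2, 18.9, 131 and 85.7 CPM in aged samples 1 to 6. In young samples 1 to 6 they were at 12.1, 9.81, 29.5, 49.1, 43.0 and 13.3 CPM. The part of other cells in the level of Cox6a2 was not tested.

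The other tested members of complex IV had log2 fold changes of -0.07 to 0.64. Cox4i1, the ubiquitous form of subunit 4 and highest of the complex per kilobase (chr8:120668222-120674207, plus strand), averaged 2575 ± 503 in aged and 2304 ± 331 normalized counts in young samples (SD, n = 6 each). Cox5b, a nuclear subunit on the matrix side (chr1:36691449-36693681, plus strand), averaged 550 ± 126 in aged and 460.3 ± 112 in young samples (log2 fold change 0.25, limma adjusted p = 0.729). Cox6b1, which faces the intermembrane space (chr7:30616861-30626151, minus strand), averaged 1341 ± 378 in aged and 1119 ± 206 in young samples. Its testis paralog Cox6b2 (chr7:4751792-4753094, minus strand) ran from 10.3 to 25.2 in aged and from 1.16 to 22.2 in young samples, and the log2 fold change of 0.64 had an SE of 0.525. Cox7a2 (chr9:79755361-79759878, minus strand) averaged 538 ± 166 in aged and 458 ± 120 in young samples, and Cox7a2l, its relative in respiratory supercomplexes (chr17:83501918-83517330, minus strand), averaged 726 ± 125 in aged and 753 ± 72.1 in young samples.

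Neither pair of the remaining complex IV paralogs passed. The log2 ratio of Cox6b2 over Cox6b1 differed by 0.42 between ages (exact permutation p = 0.517, adjusted 0.621) and that of Cox7a2l over Cox7a2 by -0.27 (p = 0.117, adjusted 0.234). The ratio of Cox7a2l over Cox7a2 was 0.48 ± 0.29 in aged and 0.75 ± 0.26 in young samples (SD, n = 6 each), with values of 0.10 to 0.97 in aged and 0.45 to 1.11 in young samples.

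Complex V, ATP synthase, combines a catalytic F1 head with a membrane rotor and a stalk. The 5 F1 subunits had a median log2 fold change of -0.01, with 1 above 0 and 4 below. Atp5b (chr10:128083273-128090391, plus strand) averaged 12948 ± 1203 in aged and 13240 ± 502 normalized counts in young samples (SD, n = 6 each, log2 fold change -0.04, limma adjusted p = 0.919). Aged 5, at 10659, was below every other sample, and the other 11 lay between 12858 and 14184. The 4 tested subunits of the peripheral stalk had a median of 0.11. Of these Atp5h (chr11:115415689-115419962, minus strand) averaged 1026 ± 221 in aged and 901 ± 172 in young samples (log2 fold change 0.18, limma adjusted p = 0.793), and Atp5j (chr16:84827866-84835625, minus strand) 1154 ± 271 in aged and 1057 ± 278 in young samples. Atp5j shares 397 exon bases with Gabpa on the opposite strand, which averaged 1576 normalized counts over all samples, so reads of the pair cannot be told apart there.

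The 3 small membrane subunits of complex V were all above 0, with a median of 0.18. Atp5j2 (chr5:145183698-145192062, minus strand) averaged 608 ± 192 in aged and 522 ± 131 normalized counts in young samples, and Atp5k (chr5:108433244-108434448, minus strand), with the most positive value of the complex at 0.22, averaged 135 ± 59.6 in aged and 119 ± 57.1 in young samples (SD, n = 6 each). In both, the SDs were larger than the difference of the means. Atp5s, known as coupling factor B (chr12:69724950-69744660, plus strand), averaged 252 ± 29.2 in aged and 249 ± 53.9 normalized counts in young samples.

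The c-ring, the rotor turned by protons, is encoded by 3 genes whose mature proteins are identical in mammals, while the targeting sequences cut off on import differ. Atp5g3 (chr2:73908447-73911326, minus strand) averaged 956 ± 203 in aged and 991 ± 166 normalized counts in young samples, Atp5g1 (chr11:96068852-96075670, minus strand) 776 ± 149 in aged and 730 ± 137 in young samples, and Atp5g2 (chr15:102662864-102672352, minus strand) 264 ± 74.4 in aged and 238 ± 55.7 in young samples (SD, n = 6 each). Atp5g3 gave 47.9 ± 1.21% of their sum in aged and 50.7 ± 2.79% in young samples, Atp5g1 39.0 ± 1.23% in aged and 37.2 ± 1.95% in young samples, with the rest from Atp5g2. The log2 ratio of Atp5g1 over Atp5g3 was -0.29 ± 0.06 in aged and -0.45 ± 0.15 in young samples, a difference of 0.15 (exact permutation p = 0.0411, adjusted over 6 pairs 0.123). Atp5g2 over Atp5g3 differed by 0.19 (p = 0.165, adjusted 0.247) and Atp5g1 over Atp5g2 by -0.04 (exact permutation p = 0.686). No pair passed the adjustment.

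The last 75 codons of each c-ring gene, 225 bases before the stop codon, are printed from the same genome and annotation because they show what reads can tell these genes apart by. Capitals mark the 57 positions that are not the same in all 3 genes, 52 of them at the third base of a codon. Identity was 84.9% between Atp5g1 and Atp5g2, 80.0% between Atp5g1 and Atp5g3 and 78.7% between Atp5g2 and Atp5g3, with longest shared runs of 20, 11 and 8 bases.
Atp5g1: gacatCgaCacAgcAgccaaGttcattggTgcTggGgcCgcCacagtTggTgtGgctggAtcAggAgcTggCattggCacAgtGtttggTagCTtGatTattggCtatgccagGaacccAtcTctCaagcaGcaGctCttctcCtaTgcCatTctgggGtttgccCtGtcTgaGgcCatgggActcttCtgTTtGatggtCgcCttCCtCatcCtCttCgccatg
Atp5g2: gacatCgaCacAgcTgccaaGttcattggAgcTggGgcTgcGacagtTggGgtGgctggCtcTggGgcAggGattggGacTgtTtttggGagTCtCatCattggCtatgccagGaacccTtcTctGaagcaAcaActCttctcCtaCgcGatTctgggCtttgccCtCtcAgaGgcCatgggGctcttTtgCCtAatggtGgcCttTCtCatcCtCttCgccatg
Atp5g3: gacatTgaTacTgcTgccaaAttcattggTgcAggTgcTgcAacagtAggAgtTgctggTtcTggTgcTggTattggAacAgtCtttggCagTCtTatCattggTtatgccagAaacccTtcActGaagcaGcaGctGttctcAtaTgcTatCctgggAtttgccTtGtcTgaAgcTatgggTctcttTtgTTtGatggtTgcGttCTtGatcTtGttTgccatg

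The members' average level varied more between samples than between ages. Each gene was set against its own mean over the 12 samples on the log2 scale, and these differences were averaged over the 85 members. The averages were 0.19, 0.34, -0.03, 0.0091, -0.40 and 0.24 in aged samples 1 to 6, and -0.26, -0.25, 0.09, 0.09, 0.18 and -0.21 in young samples 1 to 6. Aged 5 was the lowest of all samples and aged 2 the highest. Between ages the averages overlapped, at 0.06 ± 0.26 in aged and -0.06 ± 0.20 in young samples (SD, n = 6 each). Aged 5 was the lowest aged sample in 65 of 85 members, 76.5%, against 25.4% of all tested genes. Aged 2 was the highest aged sample in 43 members, 50.6%, against 14.5% of all tested genes. In 76 members the lowest young sample was young 1, young 2 or young 6.

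In complexes I, III, IV and V alike, aged 5 was the lowest and aged 2 the highest of the aged samples. From the lowest to the highest sample the averages spanned 0.63 in complex I, 0.25 in complex II, 0.73 in complex III, 1.19 in complex IV and 0.81 in complex V on the log2 scale. In complex IV, aged 5 stood at -0.64 and aged 2 at 0.55, and young 6, with Cox6b2 at 1.16 normalized counts, at -0.54.

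**Figure D3:**
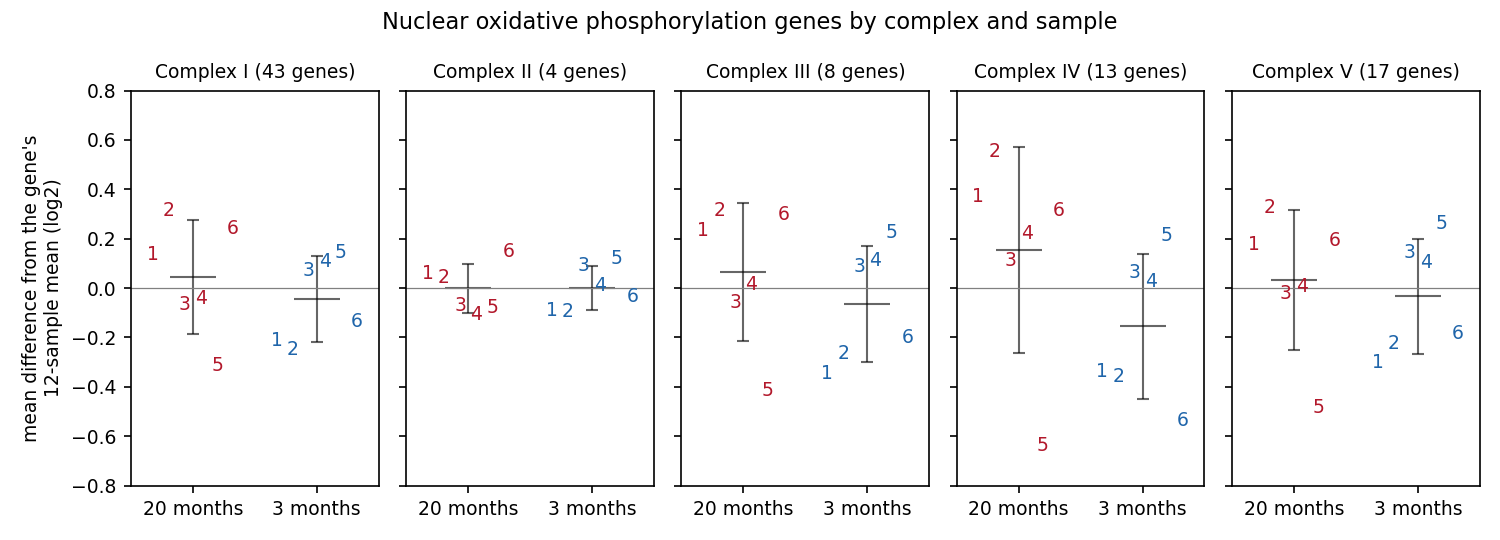
Each numeral is a sample number at the mean log2 difference of the tested genes of a complex from their own 12-sample means, with 20 months left of 3 months, the bar at the mean and the error bar at 1 SD (n = 6 per age). Aged 5 is the lowest aged sample in complexes I, III, IV and V, and both ages overlap in every complex.

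The spread between samples and the lean with age both varied with transcript length. Lengths, the median spliced length of the annotated coding transcripts, were at hand for 84 tested members, all but Atp5o, and had a median of 772.5 bases, against 2697 bases for all tested genes with a length. The 25 members under 600 bases had log2 fold changes that were all above 0, with a median of 0.21. The 25 from 600 to under 1000 bases had a median of 0.13 with 22 above 0, the 15 from 1000 to under 1500 bases a median of -0.05 with 6 above 0, and the 19 of 1500 bases or more a median of 0.02 with 11 above 0. Other tested genes were graded the same way, with medians of 0.15 (96 of 124 above 0), 0.04, -0.0036 and -0.0034 from the shortest class to the longest. Across the 84 members, which share samples and libraries, Spearman's rho between log2 fold change and length was -0.68, and between the SD over samples and length -0.74. Over the 11056 tested genes with a length, rho between log2 fold change and length was 0.0089. These lengths depend on which transcripts are annotated, and which of them the cells made was not tested. Atp5g1, Ndufb2 and Ndufab1, at 2675.5, 2413 and 2447.5 bases, fell in the longest class. Their SDs over samples were 0.28, 0.37 and 0.19 on the log2 scale, against a class median of 0.14.

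**Figure D4:**
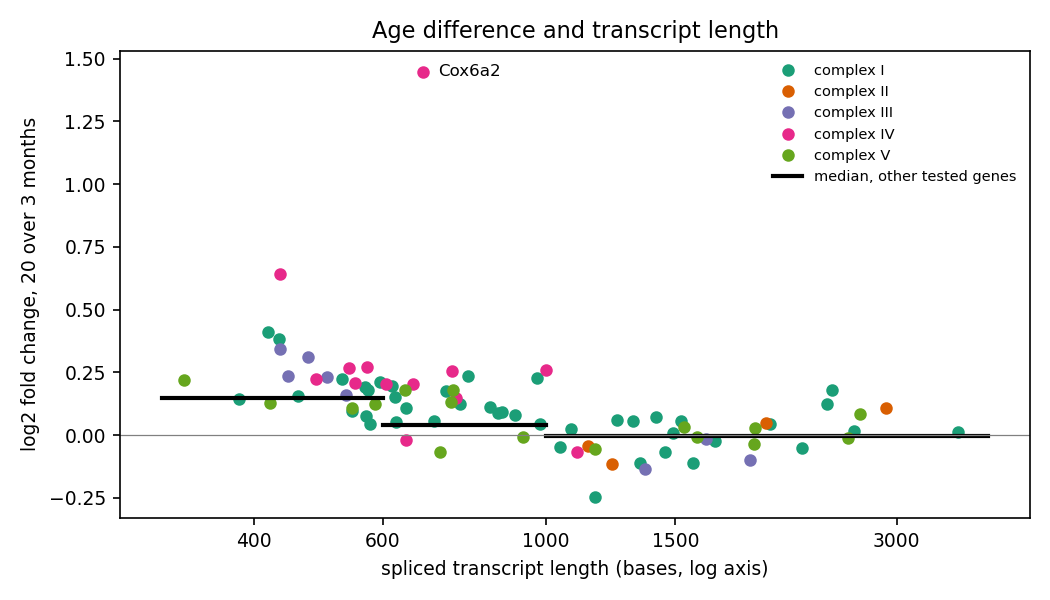
Points are the 84 tested members with a length, by spliced transcript length in bases (log axis) and log2 fold change (20 months over 3 months), coloured by complex, and black bars are the medians of all other tested genes in each length class. All 25 members under 600 bases lie above 0, while those of 1000 bases or more lie on both sides of it.

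In single samples, members under 600 bases averaged 0.30, 0.59, -0.03, 0.10, -0.59 and 0.31 in aged samples 1 to 6 and -0.49, -0.35, 0.17, 0.09, 0.29 and -0.38 in young samples 1 to 6. This is a span of 1.18 on the log2 scale, or 2.26-fold, while members of 1500 bases or more spanned 0.22, or 1.17-fold. The 124 other tested genes under 600 bases spanned 0.89 with the same samples at the ends, aged 2 at 0.45 and aged 5 at -0.44. The 78 tested cytosolic ribosomal protein genes, a group with no part in respiration, averaged 0.26, 0.58, -0.04, 0.13, -0.72 and 0.32 in aged samples 1 to 6 and -0.42, -0.36, 0.06, 0.15, 0.33 and -0.30 in young samples 1 to 6. The swing of the short members was thus also seen in short genes outside the chain. Ribosomal protein genes were not removed from the other tested genes, so the 124 short genes and the 78 can overlap. Recovered depth was 31.6, 26.1, 24.2 and 26.3 M reads in aged 1, 2, 4 and 5. In young 1, 3, 5 and 6 it was 11.4, 41.4, 47.3 and 23.4 M reads. The part of depth in these levels was not tested. Why the samples differed was not tested.

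**Figure D5:**
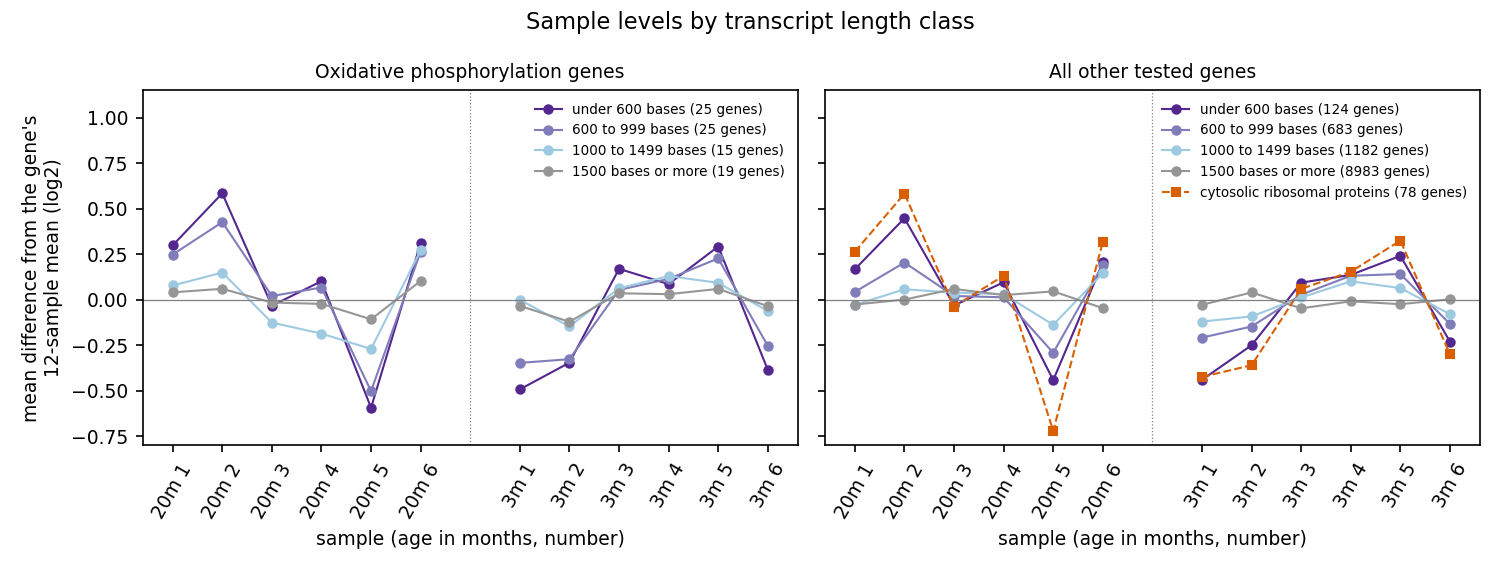
The y axis is the mean log2 difference of the genes of a length class from their own 12-sample means, by sample (20m is 20 months, 3m is 3 months), for the members on the left and for all other tested genes on the right. Members under 600 bases run from -0.59 in aged 5 to 0.59 in aged 2, those of 1500 bases or more from -0.12 to 0.10, and cytosolic ribosomal proteins (dashed) from -0.72 to 0.58.

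With the length trend of each sample removed, a correction added after the data were seen, rho between log2 fold change and length was -0.21 among the members. Their median log2 fold change was then 0.05, with 0.05, 0.00975, 0.05, 0.11 and 0.00395 in complexes I to V. Without aged 5, the median of all members was 0.20, with 71 of 85 above 0. Leaving out aged 5, low in most members, raises these values by construction. In that fit the 22 members with an unadjusted p under 0.05 were all higher in aged samples, and Cox6a2 was the 1 member past the adjusted threshold. Without aged 2 or without young 1 the median of all members was 0.04 and 0.03.

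The promoters of these genes are known to bind shared factors of mitochondrial biogenesis, among them NRF1, the ETS factor GABPA, YY1 and the orphan receptor ESRRA. Promoter windows from 250 bases before to 50 bases after the start site (RefSeq, GRCm38.p6) were matched by symbol for 74 of the 92 members. Both strands were searched for GCGCA followed by any base and GCGC (NRF1), CCGGAAG (the core of ETS sites, GABPA included), AAGATGGC (YY1) and TCAAGGTCA (ESRRA), none of which contains another. Of the 74 windows, 25.7% held the NRF1 letters, against 5.19% of 27025 gene windows. The ETS letters were in 23.0% against 9.93%, the YY1 letters in 13.5% against 3.19% and the ESRRA letters in 2.70% against 0.466%. At least 1 of the motifs was in 40 windows, 54.1%, against 16.8% of all. The median log2 fold change of tested members was 0.10 with and 0.11 without the NRF1 letters, 0.13 and 0.09 for ETS, 0.11 and 0.11 for YY1, and -0.09 (2 members) and 0.11 for ESRRA. A match describes letters in the window and not a bound site.

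Windows are shown for the members with the smallest p that hold a motif outside Cox6a2, for which no window was matched. Capitals mark the motif on either strand. The Ndufa3 window (chr7:3617123-3617422, plus strand) holds the YY1 letters, the Cox6a1 window (chr5:115348909-115349208, minus strand) the NRF1 letters at 2 places and the ETS letters once, and the Uqcrh window (chr4:116075021-116075320, minus strand) the ETS letters once.
Ndufa3: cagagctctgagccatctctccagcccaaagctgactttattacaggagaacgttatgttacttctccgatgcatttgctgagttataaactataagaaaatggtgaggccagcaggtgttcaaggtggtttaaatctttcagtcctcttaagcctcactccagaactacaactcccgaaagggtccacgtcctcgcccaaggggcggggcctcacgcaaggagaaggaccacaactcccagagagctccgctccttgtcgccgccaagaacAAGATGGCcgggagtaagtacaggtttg
Cox6a1: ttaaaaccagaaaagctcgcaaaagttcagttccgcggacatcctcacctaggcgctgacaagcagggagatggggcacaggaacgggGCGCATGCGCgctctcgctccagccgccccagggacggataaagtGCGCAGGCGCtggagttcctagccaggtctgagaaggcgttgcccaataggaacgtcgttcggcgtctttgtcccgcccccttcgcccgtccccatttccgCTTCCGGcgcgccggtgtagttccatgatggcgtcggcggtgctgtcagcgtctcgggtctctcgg
Uqcrh: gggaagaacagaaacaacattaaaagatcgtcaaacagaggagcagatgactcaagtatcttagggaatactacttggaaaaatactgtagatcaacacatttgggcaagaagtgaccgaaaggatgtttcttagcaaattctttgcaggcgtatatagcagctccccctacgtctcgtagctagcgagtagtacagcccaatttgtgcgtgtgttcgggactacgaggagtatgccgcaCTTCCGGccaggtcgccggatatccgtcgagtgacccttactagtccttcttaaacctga

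Genes around the chain had no calls either. Of the mitochondrial biogenesis regulators, 0 of 15 tested passed, with a median log2 fold change of 0.01. Among them Nrf1 averaged 1839 ± 243 in aged and 1957 ± 189 normalized counts in young samples, Gabpa 1550 ± 235 in aged and 1602 ± 248 in young samples, and Tfam, which packages mitochondrial DNA, 552 ± 56.4 in aged and 602 ± 44.7 in young samples (SD, n = 6 each). The smallest p of the list was that of Esrrg, an orphan nuclear receptor of oxidative tissues, with 24.9 ± 14.5 in aged and 5.36 ± 5.42 in young samples (log2 fold change 2.15, limma adjusted p = 0.213). Ppargc1a, the coactivator of the program, was at or near 0 in all samples, with 7.39 in aged 3, 2.46 in young 1 and 0 in the other 10.

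Assembly factors likewise had no call. Of complex IV assembly and copper delivery 0 of 19 passed (median 0.0057, smallest p Cox15), of complex I assembly outside the Nduf names 0 of 7 (-0.04, Tmem186) and of complex II, III and V assembly 0 of 10 (0.06, Uqcc2). Sco2, a copper chaperone of complex IV, was listed at 0 in all samples, which, as for Ndufs5, cannot be read as a lack of the transcript. Uqcc2, an assembly factor of complex III, averaged 298 ± 89.6 in aged and 216 ± 63.9 normalized counts in young samples (log2 fold change 0.46, limma adjusted p = 0.486). Of 9 other nuclear components of the chain, 0 passed (median -0.00936, smallest p Usmg5), and cytochrome c, Cycs, averaged 403 ± 54.7 in aged and 386 ± 69.9 in young samples.

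The neighbouring pathways showed medians slightly below 0 and no calls. Of the TCA cycle 0 of 18 passed, with a median of -0.03 and 7 above 0. Pdha1, the E1 alpha subunit of pyruvate dehydrogenase, averaged 876 ± 52.5 in aged and 1058 ± 103 normalized counts in young samples (log2 fold change -0.27, limma adjusted p = 0.157), with 1 young sample, young 4 at 928, below the highest aged sample, aged 1 at 952. Of membrane carriers 0 of 7 passed (median -0.05), and the porin Vdac2 averaged 4450 ± 446 in aged and 4958 ± 206 in young samples. Of supercomplex and cristae factors 0 of 12 passed (median -0.03). That list includes Cox7a2l, which is also counted in complex IV here. Chchd3, of the cristae-organising MICOS complex, averaged 623 ± 68.5 in aged and 718 ± 30.5 in young samples (limma adjusted p = 0.395).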

How the data were processed

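RNA was sequenced from sorted hippocampal microglia of 12 samples, 6 per age, as SmartSeq v4 cDNA in Nextera XT libraries that do not mark strand. The deposited data are 1 table of non-negative signal values, normalized counts per gene, which the authors made with STAR, SAMtools and DESeq2 on mm10, per the submitters' processing notes. Their versions and gene annotation were not named in these sources. In the 8 samples with 1 library, 100% of values came out as whole reads when divided by 1 step per sample (tolerance 0.1 of a read), and these reads were recovered. In the 4 samples with 2 libraries this held for 21.6 to 24.2% of values, and reads were not recovered.

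Values were taken as log2(normalized count + 1), so the fold change of low genes is understated. Genes with at least 10 normalized counts in at least 6 samples were tested with limma 3.58.1 (R 4.3.3, mean-variance trend, two-sided, Benjamini-Hochberg over all 11579 tested genes, threshold 0.05), without covariates. edgeR 4.0.16 and DESeq2 1.42.0 were run on the recovered reads of the 8 samples. Paralog ratios were compared with an exact permutation test over samples. The limma fit of all 12 samples was checked on simulated counts. Genes were drawn independently there, so the simulation had no swing shared by short genes. The edgeR, DESeq2 and length-corrected fits were not checked this way. Errors are SDs over samples or the SE of a fit. Depth limits mainly the low members, such as Cox6b2.

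The members, gene lists, paralog pairs and motifs were chosen with earlier results of these data known, so no list or score has a p. Members named were, per complex, those with the 3 smallest p, the most positive and most negative fold change and the highest and lowest level per kilobase, as well as both genes of each tested paralog pair (6 of 10 pairs) and every member left out by the filter. Others named in the text, such as Uqcrc2, were added after their values were seen. Gene positions and lengths come from GENCODE M21 (mm10), which matched 91 of 92 members with 1 gene model each. Of the tested members, 30 share exon bases with another annotated gene, 21 of them with a gene of the table. Transcript length correction removed each sample's lowess trend (span 0.2) on log10 length.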

Additional observations from a re-analysis of the deposited data

Results flagged for a closer look

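In 102 groups of 6 samples, made of the named members, the averages of complexes and subunit groups and the paralog ratios at each age, 3 held a sample whose gap to its nearest neighbour was too large a part of the range of the group by Dixon's critical value. Chance would flag about 1 independent group in 20. These groups share samples and genes, so that rate does not apply to them and no conclusion is drawn from the count of 3. Atp5b, the catalytic beta subunit of ATP synthase, was at 10659 normalized counts in aged 5, with a gap of 0.659 of the range below the other aged samples. Sdha, the flavoprotein of complex II, was at 10476 normalized counts in young 1, the shallowest of the 8 samples with 1 library, with a gap of 0.689 of the range above the other young samples. The complex IV average was at -0.64 on the log2 scale in aged 5, with a gap of 0.629 of the range below the other aged samples.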

How the results depend on the processing

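The members were refitted under 28 alternative settings, 12 of which left out 1 sample. The count of members called higher was 0 to 1 when 1 sample was left out, and 1 without aged 5, without aged 5 and 6, without aged 5 and young 1 together, after transcript length correction and with DESeq2 on 8 samples. That member was Cox6a2 each time, and the count of members called lower was 0 in every setting. Without aged 5 it rests on 5 aged samples. The count over all genes, 200, was 91 with edgeR, 78 with limma and 235 with DESeq2 on the 8 samples with 1 library, and 134 to 235 when 1 sample was left out. The length correction and the setting without aged 5 and young 1 were chosen after seeing the data.

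Medians of complexes I, III, IV and V were above 0 in every setting. Leaving out 1 sample gave 0.04 to 0.17, 0.10 to 0.31, 0.13 to 0.39 and 0.02 to 0.15 for these 4 complexes, and -0.04 to 0.03 for complex II. For all members it gave 0.03 to 0.20, lowest without young 1 and highest without aged 5. No log2 fold change that turned direction in a setting passed the test there. When 1 sample was left out they ran from -0.063 to 0.018 for Atp5b, -0.13 to 0.059 for Atp5g3, -0.039 to 0.12 for Atp5s, -0.13 to 0.026 for Cox7a2l, -0.0024 to 0.12 for Ndufs8, -0.0082 to 0.12 for Sdhc and -0.053 to 0.013 for Uqcrc1. Without aged 5 and young 1 they were 0.038 for Atp5b, 0.049 for Atp5g3, -0.076 for Atp5s and 0.0102 for Cox7a2l. Without aged 5 and 6 they were 0.011 for Atp5b, 0.075 for Atp5g3 and 0.00802 for Cox7a2l. On the 8 samples Atp5s was at -0.096 with DESeq2, -0.093 with edgeR and -0.061 with limma, and Sdhc at -0.000518 with DESeq2 and -0.0021 with edgeR. Uqcrc1 was at 0.00499 after quantile normalization and 0.00709 after length correction, and Atp5k, 0.22 without it, at -0.0203 after length correction. The cause was not tested. Paralog ratios ran from -0.091 to 0.0047 for Atp5g1 over Atp5g2 and from -0.0049 to 0.64 for Cox6b2 over Cox6b1 when 1 sample was left out, reversed without aged 2 or aged 4 (0.0017 and 0.0047) and without young 6 (-0.0049). Among values of single members and the main results, 776 and 344 kept their direction and their side of the threshold or, where there was no test, moved by less than the spread between samples.

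No pairing by replicate number was seen, with correlations of -0.12 to 0.11 between the deviations of samples of one number. Such correlations cannot show whether samples of one number were collected or processed together. With the replicate block 145 genes were called in all and 0 members, and the medians were unchanged at 0.10 over all members. The ratio of Cox6a2 over Cox6a1, a difference of 1.18, had an adjusted p of 0.281 in an exact permutation test within pairs. With so few pairs that test has few possible assignments. Its smallest p is therefore much larger than that of the unpaired test, and its outcome decides little.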
